A study of Mus musculus with 16 samples.

Results

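To determine which genotype differences were present in muscle exposed to AICAR, gastrocnemius muscle of 5 AICAR-treated HSALR mice was compared with that of 3 AICAR-treated FVB/N control mice. These 8 mice were chosen by the genotype and treatment in their labels, and they are 8 of the 16 mice of the series. HSALR mice carry a human skeletal actin transgene with a long CTG repeat, which is driven in skeletal muscle by the actin promoter, and they are a model of myotonic dystrophy type I (DM1). They come from a single transgenic line on the FVB/N background, and the controls were mice of the FVB/N background strain. AICAR, which activates AMP-activated protein kinase (AMPK), was given at 500 mg/kg for 7 days to mice aged 3 months, and every mouse of both groups received it. The other 8 mice, of the same age, received vehicle (5 HSALR and 3 FVB/N mice) and serve here to set the genotype difference after AICAR beside that after vehicle. Each library came from a separate mouse. The table holds no row for the human transgene, so the genotype labels could not be checked against it.

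In DM1, RNA with expanded CUG repeats collects in nuclei and binds the splicing factors of the MBNL family, which shifts many muscle transcripts towards fetal splice forms. Loss of the chloride channel ClC-1 makes the fibre membrane overexcitable, which is seen as myotonia, and changes in calcium handling, neuromuscular junctions and fibre types accompany it. AMPK senses the energy state of the fibre. Its activation favours glucose uptake, fatty acid oxidation and mitochondrial gene expression, and restrains growth signalling through mTORC1.

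Between 67233541 and 81987726 reads per AICAR mouse were counted on genes. Gene levels below are in normalized CPM, that is, counts per 1e6 counts of the library, with library totals scaled by the TMM method. All 10 skeletal muscle markers were detected, with a summed level of 126765 to 148656 normalized CPM in HSALR mice and 136082 to 181163 in control mice. Over all genes, control mouse S449 differed most from the other control mice (chi-square per degree of freedom 96.07 against S447 and 113.7 against S448). The pair of S447 and S448 had 30.83. The control mouse S448 stood apart in the epidermal markers. The 9 epidermal markers summed to 165 normalized CPM in it, against 2.39 to 3.1 in the other 7 AICAR mice, and Krt14 alone reached 20.7 in S448 with 0 to 0.0391 in the others. Of these 9 genes, 5 were called lower in HSALR muscle with all mice, and none without S448. Epidermal RNA was also present in 5 of the 8 vehicle libraries (log2 of the summed CPM plus 0.1 between 4.871 and 8.222, against 7.364 in S448 and 1.24 to 1.942 in the other 10 libraries), so that it bears on every comparison of AICAR with vehicle. The 8 endothelial markers summed to 281 to 300 in HSALR mice and 364 to 377 in control mice, and the 9 Schwann cell and nerve markers to 120 to 206 in HSALR mice and to 343, 321 and 135 in the control mice S447, S448 and S449. Control mouse S449 thus lay among the HSALR mice, and 1 of the 8 Schwann cell and nerve markers tested was called lower with all mice and 7 without S449. Their part in the lower genes was not tested. The 15 leukocyte markers, of which 14 were detected, summed to 203 to 317 in HSALR mice and 162 to 192 in control mice. Of the 12 tested, none was called higher or lower with all mice.

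After AICAR, 3379 genes differed between HSALR and control muscle, which is 21.8% of the 15487 genes tested (edgeR's quasi-likelihood test, Benjamini-Hochberg adjusted p under 0.05). Of these, 1886 were higher in HSALR muscle (12.2% of the genes tested) and 1493 were lower (9.64%). The difference was at least 2-fold for 552 genes (3.56%). The mice of the groups did not overlap for 4111 genes (26.5%). The number of calls fell with any control mouse left out, which also shrinks the smaller group. It was 2214 without control mouse S447 and 2615 without S449. Without S448 it was 2441, of which 1313 were higher and 1128 lower. With a single HSALR mouse left out it was between 2622 (without S454) and 3790 (without S460). Of the 3379 genes, 68.2% were still called in the same direction without S448, and 10 changed sign.

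Many of these differences were also present after vehicle. In the vehicle-treated mice, 4169 genes (26.9%) differed by genotype. In total 1978 genes were called in the same direction after both treatments, which is 58.5% of the calls after AICAR and 47.4% of the calls after vehicle. The genotype difference itself differed between AICAR and vehicle for 107 genes (0.691%), with 32 values more positive after AICAR (0.207%) and 75 more negative (0.484%). An unadjusted p under 0.05 for this difference was found for 2324 genes. Of the 1384 genes called after AICAR and not after vehicle, only 13 had a called difference between the treatments. A gene called after one treatment and not after the other is therefore not described below as particular to AICAR unless that difference was called. For 85 of the 107 genes the genotype difference was smaller in size after AICAR. The count of 107 was 15 without control mouse S448, 371 without HSALR mouse S460 and 59 with the epidermal marker level as a covariate. The part of epidermal RNA in the single genes among the 107 was not tested.

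**Figure D1:**
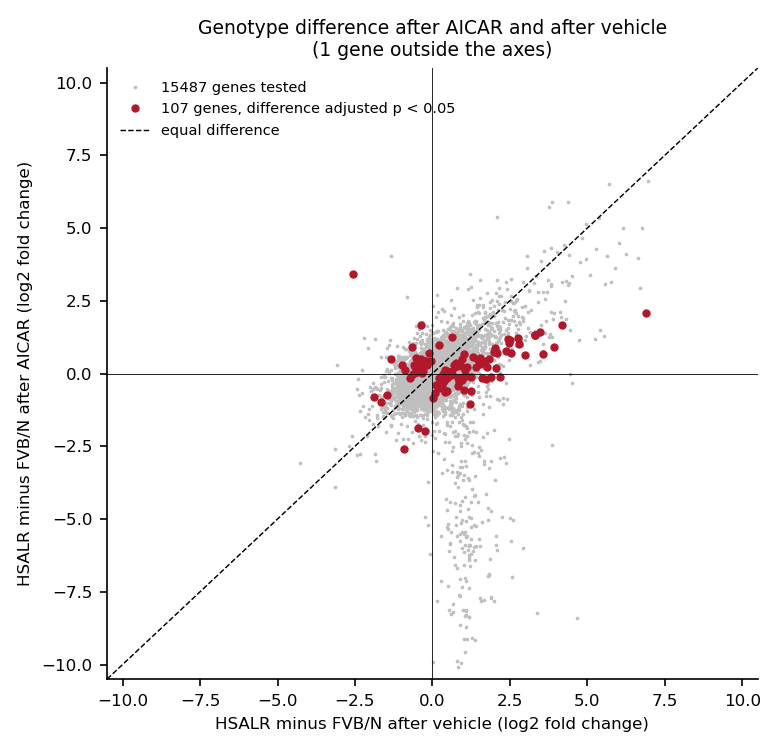
Each point is a gene, with the HSALR minus FVB/N log2 fold change after vehicle on the horizontal axis and after AICAR on the vertical axis; red points are the 107 genes whose genotype difference differed between treatments. Most red points lie nearer to 0 on the vertical axis than on the horizontal one, and the column of grey points that reaches below -5 holds epidermal genes such as Krt14, found in a single AICAR-treated control mouse.

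Among genes whose groups did not overlap, the largest genotype differences after AICAR were increases of genes with very low levels in control muscle. Myo1a, which encodes a class I myosin motor known from the intestinal brush border (chromosome 10, positions 127703436 to 127720940 of GRCm38), had 6.9, 6.12, 9.47, 4.37 and 5.32 normalized CPM in HSALR mice and 0.228, 0.314 and 0.315 in control mice. Every HSALR mouse was thus far above the highest control mouse. This is a 22.4-fold difference, or 4.48 on the log2 scale, with an SE (standard error) of 0.26 (adjusted p = 6.0e-08 by edgeR). Chia1, an acidic chitinase, had 0.755 to 1.68 normalized CPM in HSALR mice and between 0 and 3 reads in each control mouse, so that its fitted log2 fold change of 5.91 rests on very few control reads. The same holds for the retinol dehydrogenase Rdh8, with 2 to 4 reads in each control mouse and a log2 fold change of 5.37. Eif4e1b, related to the cap-binding factor eIF4E, had 0.868 to 1.91 normalized CPM in HSALR mice against 0.043 to 0.0711 in control mice (4.41), which is 3 to 5 reads in each. Trp73, a p53 family transcription factor, had 1.81 to 2.6 against 0.0284 to 0.262 (4.31), with 2 to 20 reads in control mice. Catsperd, with 4 to 9 control reads, and Ankrd55, Cdcp1 and Ccdc192 were higher by log2 fold changes of 4.04, 3.88, 3.35 and 4.07. None of these genes overlapped between the groups, and none lost its call when a mouse was left out.

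Ion channel genes were among these increases. Cacna1i, a T-type calcium channel subunit, had 27.6, 15.6, 22.7, 27.7 and 26.9 normalized CPM in HSALR mice and 0.811, 2.04 and 2.96 in control mice. All HSALR mice were far above the controls, for a value of 3.63 on the log2 scale (SE 0.43, adjusted p = 4.2e-05 by edgeR). Cacna2d4, an auxiliary calcium channel subunit, had 8.89 to 15.5 normalized CPM against 0.471 to 1.05 (log2 fold change 4.04, adjusted p = 8.7e-08 by edgeR). Lrtm2, with a log2 fold change of 4.28, lies within Cacna2d4, and without a statement that strand was used in counting, reads of the 2 genes cannot be told apart where they overlap. Chrna9, an acetylcholine receptor subunit known from hair cells, varied widely in HSALR mice, at 27.2, 19.2, 5.18, 9.91 and 9.97, and lay between 0.563 and 1.12 in control mice (log2 fold change 3.95).

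The keratins Krt8 and Krt18, which pair in simple epithelia and are also made by damaged or denervated muscle fibres, were higher in HSALR muscle with a wide spread. Krt8 was at 39 normalized CPM in HSALR mouse S460 and at 2.69 to 4.29 in the other 4, against 0.201 to 0.432 in control mice. Krt18 was at 31.7 in S460, 2.36 to 5.58 in the other 4 and 0.158 to 0.882 in control mice. Their log2 fold changes were 4.98 (adjusted p = 0.0037) and 4.09 (adjusted p = 0.0044) by edgeR, and neither passed with limma's voom method (adjusted p = 0.082 and 0.065). Epidermal Krt14 stayed at 0 to 0.0391 in all HSALR mice. Of 13 Clca genes and class I myosins tested, 3 were higher (23.1%), namely Clca1 (log2 fold change 3.15), Clca4a (2.07) and Myo1a, and 1 was lower (7.69%), Myo1e (-0.45), against 12.2% and 9.64% of all genes. Clca4a was one of the 107 genes, with a smaller difference after AICAR than after vehicle (6.89 after vehicle, adjusted p of the difference 0.032 by edgeR).

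**Figure D2:**
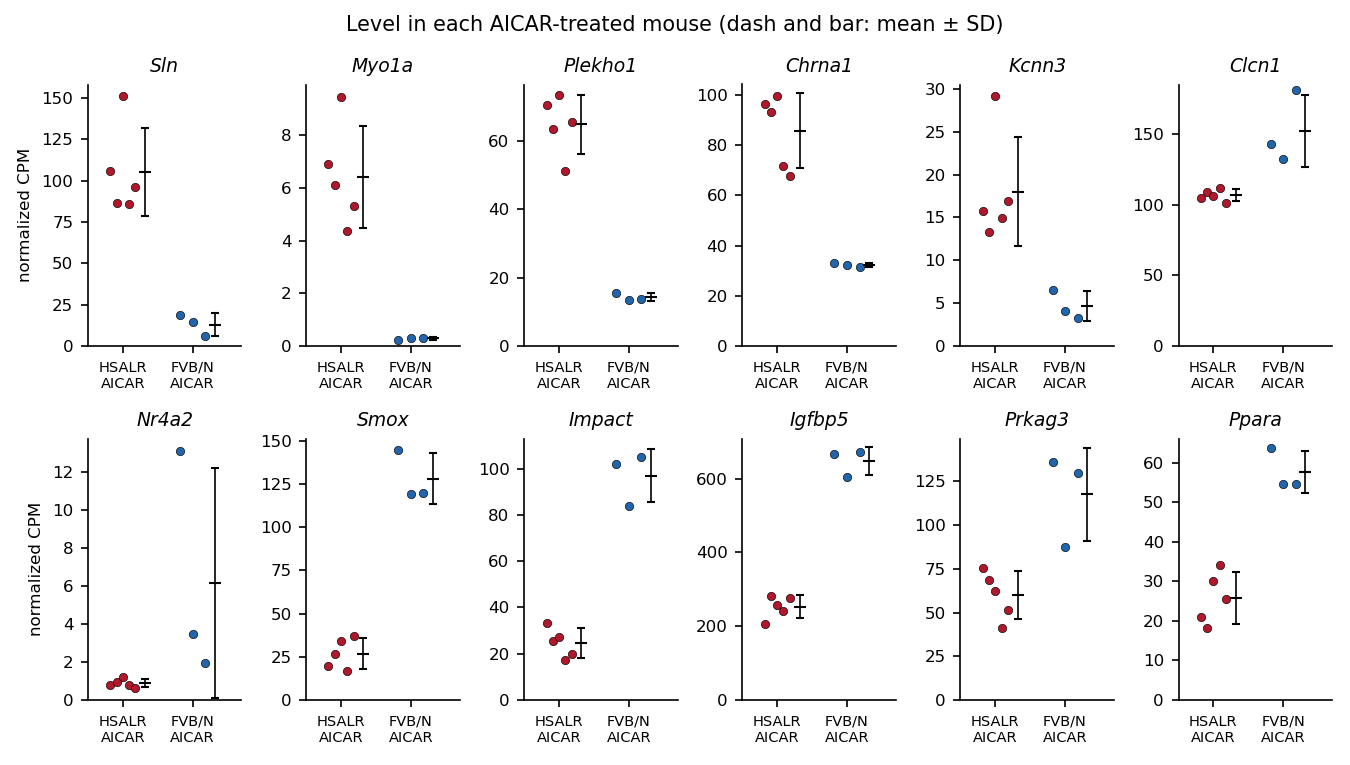
Level of 12 genes in normalized CPM (vertical axes, starting at 0) for each AICAR-treated HSALR mouse (red, n = 5) and control mouse (blue, n = 3), with the mean and SD beside the points. In all 12 genes the groups do not overlap; Nr4a2 is spread from 1.95 to 13.1 among control mice.

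Among genes lower in HSALR muscle without overlap, the largest fitted value over a mean count of 50 belonged to Nr4a2, which with Nr4a3 is an orphan nuclear receptor and an early response gene that follows muscle activity and cAMP signals. Nr4a2 had 0.782, 0.941, 1.21, 0.807 and 0.642 normalized CPM in HSALR mice and 13.1, 3.47 and 1.95 in control mice. Nr4a3 had 147, 99.4, 137, 44.4 and 97.1 in HSALR mice and 543, 328 and 513 in control mice. The groups did not overlap for either gene, but the control mice differed widely for Nr4a2. The log2 fold changes were -2.81 (SE 0.73, adjusted p = 0.013) and -2.14 (SE 0.58, adjusted p = 0.016) by edgeR. With limma's voom method Nr4a2 did not pass (-2.36, adjusted p = 0.082). Without control mouse S447 both calls were lost, at -1.63 for Nr4a2 (adjusted p = 0.15) and -2.0 for Nr4a3 (adjusted p = 0.054). The size of the difference thus changed little for Nr4a3. The early response gene Maff was called at -1.57 and lost its call without S447 (-0.94, adjusted p = 0.14). Of the 26 immediate early genes tested, 2 were higher, Jun (log2 fold change 1.02) and the matricellular gene Ccn1 (1.26), and these 3 were lower, against 12.2% and 9.64% of all genes. Jun overlapped between the groups. No immediate early gene remained called lower without S447, while 7 were called lower without the HSALR mouse S460, the 3 named and Fosb, Junb, Nr4a1 and Klf4.

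The promoters of Nr4a2 and Nr4a3 each hold 4 matches to TGACG, the core of the cAMP response element, in the 250 bases before the RefSeq start of GRCm38.p6, counting both strands. At least 4 matches were found in 0.137% and at least 1 match in 17.8% of 32851 promoter windows of this length. The promoter of Smox, a strongly lower gene described below, was searched in the same way and held 0 matches. The windows below are 5′ to 3′ on the gene's strand, with a match in capitals, and show a match of each gene at chr2:57124133-57124157 (minus strand) and at chr4:48045090-48045114 (plus strand). The window of Nr4a3 holds a further match in lower case.
Nr4a2, 144 bases before the start: cggctgcacgCGTCAcggagcccgg
Nr4a3, 205 bases before the start: gtcgtcacatTGACGtctcgcattc
These genes were looked at after their values were seen, and a match of letters is a description of the window and not evidence that a factor binds it. Crem, a cAMP-responsive transcription factor gene, was lower in HSALR muscle after AICAR, at 9.83 to 12.4 normalized CPM against 16.3 to 18.1 in control mice (log2 fold change -0.65, SE 0.11, adjusted p = 0.0011 by edgeR). After vehicle its difference had the other sign, at 0.42, and the change between the treatments was called (adjusted p = 0.014 by edgeR).

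Cardiac actin, Actc1, which is made in fetal skeletal muscle, was lower in HSALR mice, at 5.94, 6.35, 7.75, 8.07 and 6.52 normalized CPM, than in control mice at 33.8, 40.9 and 49.4 (-2.58 on the log2 scale, SE 0.32, adjusted p = 6.2e-05 by edgeR). Kcnab1, a potassium channel β subunit, had 9.03 to 11 normalized CPM against 51.4 to 63.6 (-2.50). Kcnf1, a modulatory potassium channel subunit, was also lower (-2.28). Cadherin 4 (Cdh4, -2.02), Rmi2 (-2.37), Pdzd7 (-2.03), Cbarp (-1.86) and Sytl2 (-1.75) were lower as well, and none of the 5 overlapped between groups. Mib1, an E3 ligase of Notch ligands, was at 16.3 to 19.2 against 50.7 to 79.3 (-1.82). The Mib1 locus contains the genes of miR-1a-2 and miR-133a-1 and their host transcript, whose reads may be counted with it. The long non-coding 2310065F04Rik had 47.6 to 73.2 against 171 to 221 (-1.78).

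Of 29 excitability genes tested, 7 were higher and 5 were lower, with a median log2 fold change of 0.02, while 12.2% of all genes were higher and 9.64% lower with a median of 0.004. Without S448 there remained 4 of the 7 higher calls, and without S449 there remained 3 of the 5 lower ones. Clcn1 (chromosome 6, positions 42284851 to 42315764), which encodes ClC-1, had 105, 109, 106, 112 and 101 normalized CPM in HSALR mice and 143, 132 and 181 in control mice. The HSALR mice lay close together and below all control mice, with a log2 fold change of -0.51 (SE 0.11, adjusted p = 0.004 by edgeR). After vehicle the log2 fold change was -1.01, and the change of 0.50 between treatments did not pass (adjusted p = 0.15 by edgeR). Scn4a, the muscle sodium channel, had -0.39 (adjusted p = 0.017), which fell to -0.24 without control mouse S449 (adjusted p = 0.11). Kcnma1, the large-conductance calcium-activated potassium channel, had -0.47 (-0.43 without S449, adjusted p = 0.055).

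Kcnn3, the small-conductance calcium-activated potassium channel SK3 that reappears in denervated and myotonic muscle (chromosome 3, positions 89520164 to 89672494), had 15.8, 13.3, 29.2, 14.9 and 16.9 normalized CPM in HSALR mice and 6.58, 4.1 and 3.27 in control mice. The highest value was again from S460, and the other 4 HSALR mice were also above all controls. On the log2 scale the difference was 1.95 (SE 0.27, adjusted p = 1.4e-04 by edgeR) and 1.71 after vehicle. The pacemaker channel gene Hcn2 was at 2.85 to 4.05 against 1.35 to 1.48 (1.21), and Kcnq5 at 61.9 to 86 against 43.1 to 55.4 (0.61).

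Of 26 genes of the triad, where the membrane signal releases calcium, 5 were higher and 2 lower, and 19 were not called. These shares of 19.2% and 7.69% stand beside 12.2% and 9.64% of all genes, and 2 of the 5 higher calls remained without S448. Of the 2 lower calls 1 remained without S447 or without S449, while 4 were lower without the vehicle-treated control mouse S450. The clearest was sarcolipin (Sln, chromosome 9, positions 53850251 to 53853849), the small inhibitor of the SERCA calcium pump. It had 106, 86.7, 151, 86.2 and 96.4 normalized CPM in HSALR mice and 18.9, 14.4 and 5.76 in control mice, an 8.05-fold difference (log2 fold change 3.01, SE 0.41, adjusted p = 1.3e-04 by edgeR). All HSALR mice were far above the highest control mouse. The pump itself, Atp2a1, showed no call, with 26286 ± 1335 (SD, n = 5) and 28037 ± 4104 normalized CPM (SD, n = 3) and overlapping groups (-0.09, SE 0.10, adjusted p = 0.54 by edgeR). Bin1, which shapes T-tubules, was slightly higher (0.32), as was Asph (0.30), whose call was lost without S448 (0.22, adjusted p = 0.071). The plasma membrane calcium pump gene Atp2b1 was lower (-0.34).

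Among genes of the endplate, where the nerve contacts the fibre, the groups of subunits differed in call. Chrna1, the α subunit of the muscle acetylcholine receptor (chromosome 2, positions 73563281 to 73580338), had 96.4, 93.3, 99.7, 71.5 and 67.8 normalized CPM in HSALR mice and 32.9, 32.1 and 31.4 in control mice. The control mice hardly differed and lay far below the HSALR mice, with a log2 fold change of 1.42 (SE 0.17, adjusted p = 3.9e-05 by edgeR). Chrne, the adult ε subunit, had 12, 13.3, 11.7, 13.9 and 15.7 in HSALR mice and 8.09, 6.01 and 7.05 in control mice (0.92, SE 0.16, adjusted p = 0.0011 by edgeR). Chrnb1 (0.44, adjusted p = 0.053) and Chrnd (0.35, adjusted p = 0.28) did not pass in the main fit, and their groups overlapped. However, Chrnb1 passed without S449 (0.56, adjusted p = 0.041) or S463 (0.54, adjusted p = 0.011). It also passed with DESeq2 (adjusted p = 0.033), edgeR's likelihood ratio test (0.031), upper-quartile scaling (0.039), library size scaling (0.044) and a minimum of 10 counts in every library (0.047). The fetal γ subunit Chrng had 0.172 to 0.654 normalized CPM over the 8 mice (-0.18, adjusted p = 0.8). The receptor kinase gene Musk had 56.8 to 85.3 in HSALR mice, and 32.5, 31.7 and 60.9 in control mice, so that control mouse S449 lay among the HSALR mice (0.64, adjusted p = 0.077 by edgeR, or 1.02 without S449, adjusted p = 0.013). With DESeq2 Musk passed (0.63, adjusted p = 0.041).

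E-boxes (CANNTG, the motif of myogenic factors such as myogenin) were looked for in the promoters of these genes because they are known elements of receptor subunit promoters. In the 250 bases before the RefSeq start, Chrna1, Chrnb1, Chrng and Musk each held 3 and Chrne held 1, while 66.2% of all 32851 windows held at least 1 and 12.2% at least 3. Chrne held 1 match to CCGGAA, the core of the N-box bound by Ets factors in synapse-specific genes, in either orientation, which was found in 12.0% of windows and in none of the other 4. The windows are written 5′ to 3′ on the gene's strand with the motif in capitals, and lie at chr2:73580415-73580440, chr2:73580367-73580392, chr11:70619317-70619342, chr11:70619255-70619280, chr11:69795951-69795976 and chr4:58285884-58285909 in the order given. The first 5 are from the minus strand and the last from the plus strand.
Chrna1, 92 bases before the start: gtgggcagctCAGCTGtcatgcgggc
Chrna1, 44 bases before the start: gctgtggagtCAGCTGgcttccaagg
Chrne, 138 bases before the start: caggatggggCAGCTGcctcccccac
Chrne, N-box core 76 bases before the start: caaacctagcCCGGAActaacaccct
Chrnb1, 29 bases before the start: cccccgacaaCAGGTGcacattcctg
Musk, 68 bases before the start: gagttctcccCAGCTGgccacgtcca
The genes with a call in the main fit (Chrna1, Chrne) and without (Chrnb1, Musk) thus both held E-boxes in this window, and the count of E-boxes did not order them.

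Of 19 endplate genes tested, 3 were higher and 3 lower, 15.8% each and near the 12.2% and 9.64% of all genes, and 5 were higher without S449. Acetylcholinesterase (Ache) was lower, at 33.8, 33.6, 37.1, 43.6 and 51.6 normalized CPM against 56, 61.6 and 79.8 (-0.72, SE 0.16, adjusted p = 0.0057 by edgeR), and after vehicle it was at 0.11 (adjusted p = 0.69). The change between the treatments was -0.83 (adjusted p = 0.12 by edgeR) and did not pass. Ufsp1, a UFM1 protease gene on the endplate list, had 10.6 to 14.9 against 17 to 23.4 (-0.65). Rapsn, which anchors the receptors, had 0.27 (adjusted p = 0.027) with overlapping groups, and this call was lost without any one of 5 mice, S447 (0.25, adjusted p = 0.1), S448 (0.23, adjusted p = 0.11), S454 (0.25, adjusted p = 0.06), S455 (0.26, adjusted p = 0.053) or S463 (0.25, adjusted p = 0.058), and with the gene length trend removed (0.20, adjusted p = 0.11).

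Of 19 genes of the class IIa HDAC, MEF2 and denervation list, 5 were higher (26.3%, against 12.2% of all genes) and 1 was lower (5.26%, against 9.64%). Without S447 the lower call (Hdac7) was lost and 2 of the 5 higher calls remained, and without S448 there remained 3 of the 5. Hdac4, a repressor whose accumulation after denervation releases synaptic genes, had 135, 117, 106, 112 and 115 normalized CPM in HSALR mice and 56.2, 69.9 and 90.1 in control mice (0.70, SE 0.18, adjusted p = 0.011 by edgeR). Without control mouse S447 it was 0.55 with an adjusted p of 0.069. Ncam1, an adhesion molecule that spreads along denervated fibres, was at 27.6 to 35.1 against 14.1 to 17.9 (0.95, adjusted p = 0.0018 by edgeR). Gdf5, a BMP ligand gene that responds to denervation, was at 0.469 to 1.48 against 0.0573 to 0.27 (2.48), with 4 to 19 reads in each control mouse. Dach2, which represses synaptic genes and falls after denervation, was at 0.809 to 1.91 against 2.23 to 3.1 (-0.89, adjusted p = 0.066), and myogenin (Myog) at 9.35 ± 2.35 (SD, n = 5) against 6.92 ± 1.56 (SD, n = 3; 0.44, adjusted p = 0.15).

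Of 13 genes of the CaM kinase list, 4 were higher (30.8%) and 1 lower (7.69%), beside 12.2% and 9.64% of all genes. The lower call, of Camkk1, was lost without S447 or S448. Camk2b had 351, 337, 331, 332 and 320 normalized CPM in HSALR mice and 225, 208 and 273 in control mice (0.51, SE 0.08, adjusted p = 3.0e-04 by edgeR). Camk2d was at 82.6 to 127 against 68.8 to 80.3 (0.41, adjusted p = 0.024), and this call was lost without S447 (0.39, adjusted p = 0.081) or S448 (0.36, adjusted p = 0.098), and in a fit of only the 8 AICAR libraries (0.40, adjusted p = 0.053). Camk2a (-0.11, adjusted p = 0.55) and Camk2g (-0.17, adjusted p = 0.088, or -0.24 without S448 with an adjusted p of 0.03) did not pass. As shares of all Camk2 counts, Camk2b took 33.4% ± 1.14 (SD, n = 5) in HSALR and 25.2% ± 0.654 (SD, n = 3) in control mice, and Camk2g 25.9% ± 1.1 and 31.3% ± 1.46. For both, no mouse of one group overlapped the other (exact permutation test, two-sided, p = 0.018, the smallest that 5 mice against 3 allow, adjusted p = 0.036 over the 4 genes). The share of Camk2a was lower (31.0% ± 2.07 and 35.6% ± 1.32, exact adjusted p = 0.048), although with counts divided by gene length the difference was -3.8 points and did not pass (exact adjusted p = 0.071). The share of Camk2d did not pass (9.75% ± 1.63 and 7.92% ± 0.421, exact adjusted p = 0.071), and its difference of 1.83 points was 1 point with counts divided by gene length (exact adjusted p = 0.089). Camk2n2, an endogenous CaMKII inhibitor, was at 1.91, 1.57, 1.92, 1.94 and 1.94 in HSALR mice and at 0.725, 0.759 and 0.788 in control mice (1.29, SE 0.15, adjusted p = 3.9e-05 by edgeR).

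Camk1d, a CaM kinase I gene, was the only one of the 13 genes of this list with a called change of the genotype difference between treatments. It had 17.6, 16.2, 28.2, 17.4 and 17.2 normalized CPM in HSALR mice after AICAR and 9.26, 9.08 and 7.89 in control mice (1.14, SE 0.16, adjusted p = 2.0e-04 by edgeR). After vehicle the means were 44.3 and 7.77 (2.51). The difference of -1.37 between the 2 contrasts was called (SE 0.23, adjusted p = 0.018 by edgeR).

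The transcripts of the sequestered splicing factors themselves were not called. Mbnl1 had 380 to 418 normalized CPM in HSALR and 410 to 475 in control mice (-0.18, adjusted p = 0.14 by edgeR), Mbnl2 286 to 354 and 255 to 405 (0.07, adjusted p = 0.79), and Mbnl3 lay between 0.11 and 0.406 (-0.41, adjusted p = 0.49). The groups overlapped for all 3. Of the 11 genes of the MBNL, CELF and RBFOX list, 2 were higher (18.2%) and 1 lower (9.09%), near the shares of all genes, and 1 of the 2 higher calls remained without S448 or without S449. Celf4 was at 0.668 to 2.06 against 0.172 to 0.432 (1.83, adjusted p = 0.0032 by edgeR), and Celf2, a splicing factor antagonistic to MBNL, at 60.4 to 79.5 against 84.7 to 110 (-0.41), or -0.29 without S449 (adjusted p = 0.11) and -0.27 with the gene length trend removed (adjusted p = 0.081). Gene totals do not show which exons were included.

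**Figure D3:**
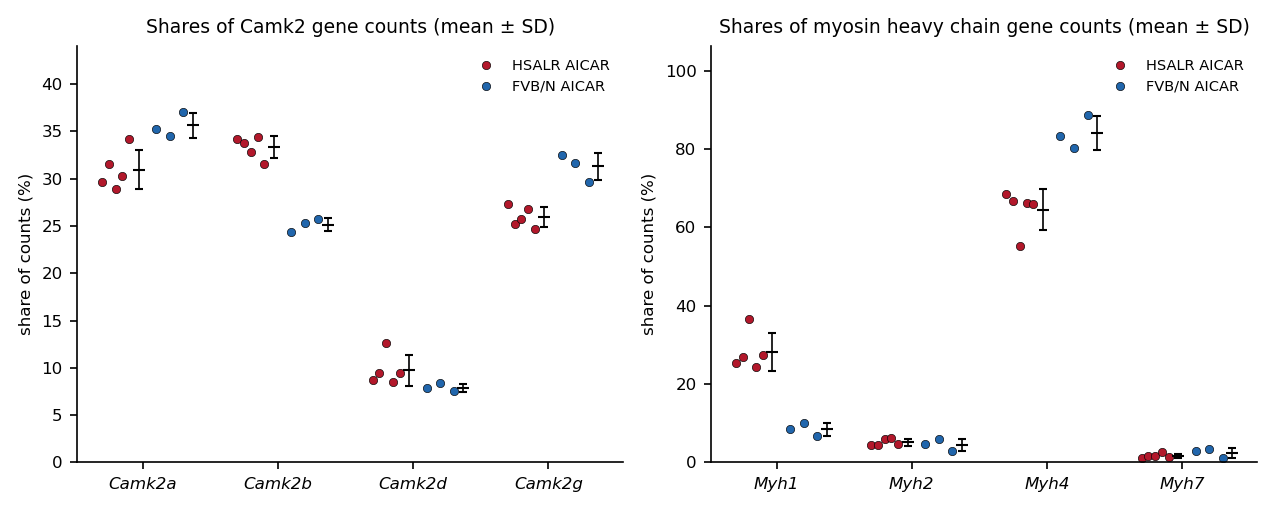
Share of the counts of 4 Camk2 genes (left) and of the myosin heavy chain genes (right, 4 of the 6 genes whose counts were summed) in percent (vertical axes, starting at 0), for each AICAR-treated HSALR mouse (red, n = 5) and control mouse (blue, n = 3), with mean and SD. The Camk2b and Myh1 shares are higher and the Camk2g and Myh4 shares lower in all HSALR mice than in any control mouse.

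The fast myosin composition differed in all mice. Myh1, the myosin of type IIX fibres, had 14295, 14698, 19358, 14820 and 15865 normalized CPM in HSALR mice and 5116, 5793 and 5872 in control mice (1.5, SE 0.19, adjusted p = 7.8e-05 by edgeR). It took 28.2% ± 4.92 (SD, n = 5) of the counts of 6 myosin heavy chain genes in HSALR mice and 8.44% ± 1.62 (SD, n = 3) in control mice. Myh4, the myosin of type IIB fibres, took 64.4% ± 5.24 and 84.0% ± 4.33. Neither share overlapped between groups (exact permutation test, two-sided, p = 0.018, adjusted p = 0.036 over the 6 genes). The level of Myh4 had a log2 fold change of -0.67 (adjusted p = 0.018), or -0.40 without control mouse S449 (adjusted p = 0.13), in which Myh4 was highest at 77356. Myh2, of type IIA fibres, was at 2912 ± 577 and 2920 ± 496 (-0.00, adjusted p = 0.99 by edgeR), and the slow Myh7 at 941 ± 396 and 1505 ± 537 (-0.68, adjusted p = 0.2). After vehicle the shares of Myh1 were 24.1% ± 7.57 and 7.73% ± 1.24. The overlapping antisense transcript Myhas may share reads with Myh1.

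Myoglobin (Mb), the oxygen store, had 7217, 7178, 7622, 7577 and 7752 normalized CPM in HSALR mice and 3805, 3719 and 2348 in control mice (1.18, SE 0.17, adjusted p = 2.2e-04 by edgeR). Of 14 slow fibre genes tested, 2 were higher (14.3%, near the 12.2% of all genes) and none lower (2 without S449), while their median was -0.65. The 2 were Csrp3 and Ankrd2, both also stress genes of muscle, and Ankrd2 was no longer called when any of the 3 control mice was left out. Skeletal actin (Acta1) had 32834 to 37598 against 24411 to 28734 (0.46), a value that may hold reads of the human actin transgene. Of 25 giant and M-band sarcomere genes, 6 were higher (24%) and 2 lower (8%), among the higher Klhl41, a stabiliser of thin filaments (0.63), Mybpc1 (0.60), Lmod2, which nucleates actin filaments (0.99), and Mybph, a myosin-binding protein at 457 to 577 against 181 to 323 (1.20). Both calls of lower sarcomere genes were lost without S449, and 1 of them without S447, while 9 were higher without S449, 4 without S447 and 10 with the gene length trend removed. Of 21 genes of the dystrophin complex, 5 were higher (23.8%) and 4 lower (19%), beside 12.2% and 9.64% of all genes. Sntb1, a syntrophin, was at 25, 22.2, 21.2, 22.4 and 28.7 against 7.07, 5.99 and 6.93 (1.84, adjusted p = 1.5e-06 by edgeR), and α-sarcoglycan (Sgca, 0.49) was higher. The 4 lower calls were all lost without S449, and 2 of the 4 remained without S447, while 2 were lower with the gene length trend removed.

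Of 19 genes linked to mechanical or myopathic stress, 7 were higher (36.8%, against 12.2% of all genes) and none lower, with a median log2 fold change of 0.59. Sbk2, a kinase gene, had 81.6, 53.5, 61.3, 70.4 and 47.5 normalized CPM against 15.5, 19.7 and 12.7 (1.97, SE 0.24, adjusted p = 4.9e-05 by edgeR). Csrp3, the muscle LIM protein, was at 126 to 208 against 30.2 to 97.5 (1.30). The small heat shock proteins Hspb7 (0.89), Hspb1 (0.75), Hspb6 (0.62) and Hspb8 (0.59) were higher in every HSALR mouse than in any control mouse. Of 64 chaperones, 13 were higher (20.3%) and 5 lower (7.81%, of which 2 remained without S449), with Hspa2 at 16.7 to 20.1 against 6.27 to 7.98 (1.35) and Hspa12b, a vascular HSP70 relative, at 9.22 to 11.6 against 17.6 to 19.6 (-0.83). Of 22 developmental and regeneration genes, 6 were higher (27.3%) and 2 lower (9.09%, near the 9.64% of all genes), and 1 of the 2 lower calls remained without S447, while 4 were lower without S448. Myf6 (1.17), the satellite cell factor Pax7 (1.38), the fusion protein gene Mymk (1.41) and the fetal light chain Myl4 (1.27) were among the higher. The satellite cell markers summed to 53.9 to 57.6 in HSALR mice and 44.6 to 52.7 in control mice. In bulk muscle, more cells of a type and more RNA per cell cannot be told apart.

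**Figure D4:**
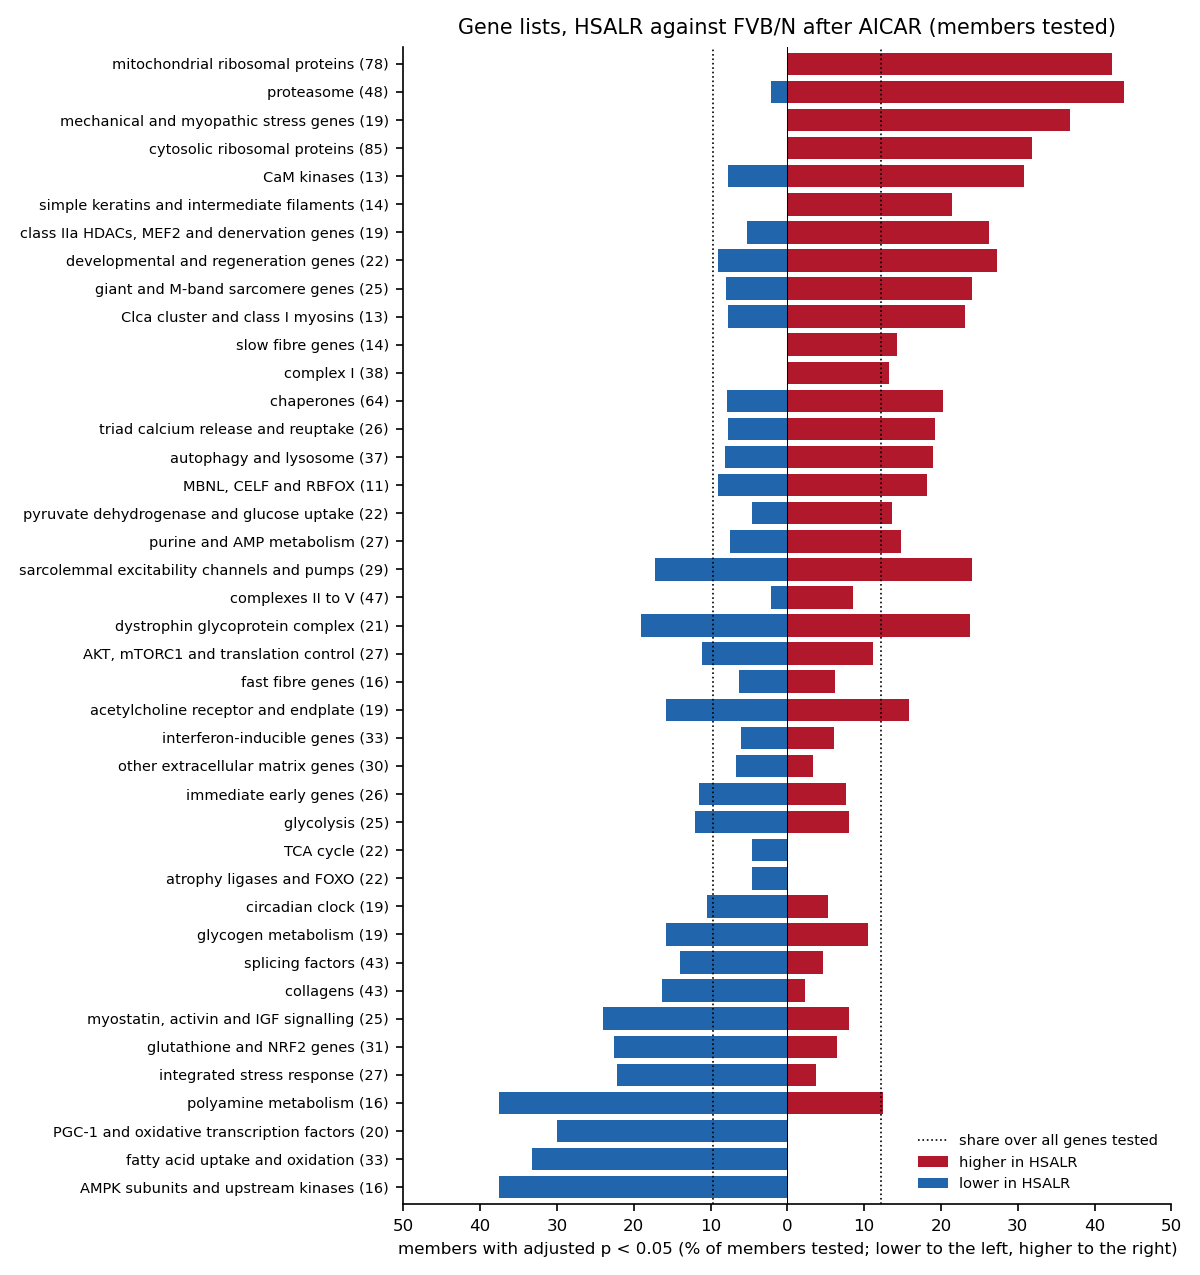
Share of the tested members of each gene list that were called higher (red, to the right) or lower (blue, to the left) in HSALR muscle after AICAR, in percent, with the number of members tested in brackets. Dotted lines mark the shares over all genes tested, 12.2% higher and 9.64% lower.

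The list of AMPK subunits and upstream kinases also holds the substrate gene Tbc1d4. Of its 16 genes tested, none was higher in HSALR muscle and 6 were lower (37.5%, against 9.64% of all genes). The median log2 fold change was -0.12. Prkag3, the γ3 subunit of fast fibres (chromosome 1, positions 74738922 to 74749471), had 75.7, 68.8, 62.1, 41.4 and 51.6 normalized CPM in HSALR mice and 136, 87.2 and 130 in control mice (-0.97, SE 0.20, adjusted p = 0.0035 by edgeR). After vehicle it was at -0.11 (adjusted p = 0.74), and the change between treatments of -0.86 did not pass (adjusted p = 0.19 by edgeR). Tbc1d4, the AKT and AMPK substrate that controls GLUT4 traffic, had 22.4 to 55 against 72.6 to 91.2 (-1.16). The subunits Prkab2 (-0.39) and Prkaa2 (-0.32) lost their calls without S449 (-0.29 and -0.21, adjusted p = 0.094 and 0.14). The call of Prkaa2 was also lost without S447 (-0.34, adjusted p = 0.054) or S455 (-0.30, adjusted p = 0.054), or with the gene length trend removed (-0.20, adjusted p = 0.06). Of the 6 calls, 4 remained without S447 and 5 without S448. Without S449 there remained 2, Prkag3 and Tbc1d4, and 2 other members were called higher.

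Of 20 genes of the PGC-1 and oxidative transcription factor list, none was higher and 6 were lower (30%, against 9.64% of all genes). Ppara, the receptor that drives fatty acid oxidation genes, had 21.1, 18.1, 30, 34.2 and 25.5 normalized CPM in HSALR mice and 63.8, 54.5 and 54.6 in control mice (-1.16, SE 0.20, adjusted p = 7.2e-04 by edgeR). After vehicle its difference was -0.08, and the change between treatments was -1.08 (SE 0.28, adjusted p = 0.095 by edgeR), which missed the threshold. Ppargc1a, encoding PGC-1α, was at 71 to 112 against 118 to 222 (-0.87, adjusted p = 0.013), or -0.63 without S449 (adjusted p = 0.088). Only 1 of the 6 calls remained without S449, and 3 without S447. Of 33 genes of fatty acid uptake and oxidation, none was higher and 11 were lower (33.3%, again beside 9.64%), with a median of -0.23. The dehydrogenase gene Acadm had 312 to 394 against 431 to 522 (-0.50), and Decr1 134 to 175 against 191 to 222 (-0.44). Acadvl (-0.33), Acaa2 (-0.45), the binding protein Fabp3 (-0.81) and the transporter Slc27a1 (-0.53) were called with all mice, and all 4 lost their calls without S447 (-0.29, -0.38, -0.69 and -0.47, adjusted p = 0.088, 0.066, 0.077 and 0.065) or without S448 (-0.30, -0.40, -0.71 and -0.48, adjusted p = 0.077, 0.056, 0.069 and 0.06). In this list 3 calls remained without S447 and 2 without S448. Of 22 TCA cycle genes 1 was lower (4.55%), and this call was lost without S448. Of 38 complex I genes 5 were higher (13.2%, near the 12.2% of all genes), and 1 of these calls remained without S449, 2 without S448 and none with the gene length trend removed, under which 2 were lower.

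Of 19 glycogen genes, 2 were higher and 3 lower, shares near the 12.2% and 9.64% of all genes, and 1 of the 3 lower calls remained without S449. The branching enzyme Gbe1 was at 180 to 222 against 122 to 142 (0.66), and the glycogen-anchoring Stbd1 at 208 to 270 against 112 to 146 (0.87), while Ppp1r3b, which targets a phosphatase to glycogen, was at 2.72 to 5.14 against 7.21 to 9.21 (-1.07). The lactate transporter Slc16a1 was lower (-0.50). Of 27 genes of purine and AMP metabolism, 4 were higher (14.8%) and 2 lower (7.41%), also near those of all genes, and 1 of the 4 higher calls remained without S447 or without S448, and 2 without S449. AMP deaminase 1 (Ampd1), which deaminates AMP to IMP, had 685, 663, 594, 734 and 690 normalized CPM in HSALR mice and 1069, 915 and 1261 in control mice (-0.68, SE 0.09, adjusted p = 1.6e-04 by edgeR). Its paralog Ampd3 was higher, at 42.2 to 61.1 against 24.6 to 36.7 (0.74). The ecto-nucleotidase Nt5e was lower (-0.70).

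Of 16 polyamine genes tested, 2 were higher (12.5%, near the 12.2% of all genes) and 6 lower (37.5%, against 9.64%), and 1 of the 2 higher calls remained without S449. Spermine oxidase, Smox (chromosome 2, positions 131491858 to 131525183), had 19.5, 26.6, 34.2, 16.8 and 37.3 normalized CPM in HSALR mice and 145, 119 and 120 in control mice. The groups lay far apart, with the control mice close together. On the log2 scale the difference was -2.25 (SE 0.26, adjusted p = 3.5e-05 by edgeR) and -0.95 after vehicle, and the change between treatments did not pass (-1.31, adjusted p = 0.12 by edgeR). Spermine synthase (Sms) was at 45 to 58.8 against 83.7 to 103 (-0.79) and the salvage enzyme gene Mtap at 8.86 to 10.9 against 15.9 to 19 (-0.80). Amd1 (-0.79) and its near-identical copy Amd2 are both among the 6, and since reads can be assigned to either they are uncertain as separate genes. Ornithine decarboxylase (Odc1) was higher, at 90.5 to 139 against 72.6 to 80.9 (0.53).

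Of 27 genes of the integrated stress response, which ATF4 drives when translation initiation slows, 1 was higher (3.7%, against 12.2% of all genes) and 6 were lower (22.2%, against 9.64%). The higher call (Vldlr) was lost without S447 or S448, and 4 of the 6 lower calls remained without S447. Impact, an inhibitor of the kinase GCN2, had 33.4, 25.5, 27.3, 17.2 and 19.8 normalized CPM in HSALR mice and 102, 83.7 and 105 in control mice (-1.98, SE 0.17, adjusted p = 1.9e-06 by edgeR). After vehicle the means were 18.7 and 22, and the change of -1.74 between the treatments was called (SE 0.24, adjusted p = 0.0062 by edgeR). Aldh1l2, of mitochondrial folate metabolism, was at 4.81 to 6 against 13.4 to 19.1 (-1.54), the amino acid transporter Slc7a5 at 3.84 to 7.28 against 9.92 to 19.5 (-1.54) and Aldh18a1, of proline synthesis, at 3.29 to 4.27 against 4.74 to 5.48 (-0.50). The groups overlapped for none of these 4 genes.

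In growth signalling, Plekho1, an AKT-binding regulator (chromosome 3, positions 95988809 to 95999355), had 70.5, 63.7, 73.6, 51.3 and 65.6 normalized CPM in HSALR mice and 15.6, 13.5 and 13.9 in control mice. The groups lay far apart, with a log2 fold change of 2.18 (SE 0.10, adjusted p = 1.4e-08 by edgeR). Ddit4l, an inhibitor of mTORC1, was at 331 to 644 against 168 to 188 (1.58) and Rps6kb2 at 18.7 to 21.8 against 13.8 to 16.5 (0.42), while Eif4ebp2 (-0.48) and Rictor (-0.54) were lower. Of the 27 genes of this list 3 were higher and 3 lower, 11.1% each and near the 12.2% and 9.64% of all genes, and 5 were higher without S449. Igfn1, a sarcomeric protein gene (chromosome 1, positions 135953205 to 136040925), had 419, 282, 509, 267 and 384 against 23.7, 30.6 and 64 (3.24, adjusted p = 1.7e-05 by edgeR). The IGF-binding protein gene Igfbp5 (chromosome 1, positions 72858065 to 72874865) had 206, 283, 257, 241 and 276 against 666, 604 and 672 (-1.36, SE 0.16, adjusted p = 3.3e-05 by edgeR), and the activin receptor gene Acvr2a 23 to 29.9 against 43.2 to 57.6 (-0.94). Of 25 genes of the myostatin, activin and IGF list, 2 were higher (8%, against 12.2% of all genes), Gdf5 and Igfn1, of which Igfn1 is no IGF signalling gene, and 6 lower (24%, against 9.64%), and 3 of the 6 lower calls remained without S447. Of 37 autophagy and lysosome genes, 7 were higher (18.9%), among them Map1lc3a (0.63), and 3 lower (8.11%), its paralog Map1lc3b, Becn1 and Ctsd. Without S448 there remained 4 of the 7 higher calls, and without S449 there remained 1 of the 3 lower ones.

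Of 85 cytosolic ribosomal protein genes, 27 were higher (31.8%, against 12.2% of all genes) and none lower, with log2 fold changes between 0.15 and 0.49. Without S448 there remained 16 of these calls, without S449 17 and without S447 21. Rpl21 was at 100 to 109 normalized CPM against 77.5 to 79.7 (0.38) and Rps27a at 55.3 to 59.3 against 39.9 to 47 (0.36). Of 78 mitochondrial ribosomal protein genes, 33 were higher (42.3%) and none lower, with Mrps34 at 45.7 to 48.6 against 36.8 to 37.3 (0.34) and Mrpl48 at 24.4 to 26.2 against 18.8 to 20.2 (0.38). Of the 33 calls 18 remained without S447. Of 48 proteasome genes, 21 were higher (43.8%) and 1 lower (2.08%, against 9.64%), with Psmd5 (0.37) and Psmb1 (0.35) among the higher. Of the 21 higher calls 10 remained without S448 and 11 without S447, and the lower call was lost without S447 or S449. These genes are short, with a median length of 710, 1053 and 1286 bases against 2883 over all genes tested, and log2 fold changes fell with gene length over all genes (Spearman's rho across 15487 genes -0.208, a description, since genes are not independent). With the trend against length removed from each library, 9 cytosolic ribosomal genes were higher and 6 lower, 11 mitochondrial ribosomal genes were higher and 5 lower, and 5 proteasome genes were higher and none lower. Under the same setting 13 fatty acid genes were lower, and 5 genes of the AMPK list were lower and 1 higher.

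Of 31 glutathione and NRF2 genes, 2 were higher (6.45%, against 12.2% of all genes) and 7 lower (22.6%, against 9.64%). Of the 7 lower calls 3 remained without S448 and 4 without S449, and 1 of the 2 higher calls remained without S447. The transferase gene Gstm2 was at 15.4 to 17 normalized CPM against 26.3 to 28.5 (-0.79, adjusted p = 4.1e-06 by edgeR) and the quinone reductase gene Nqo1 at 9.6 to 13 against 15.6 to 19.8 (-0.69), whereas glutathione peroxidase 1 (Gpx1) was at 79.9 to 92.6 against 56 to 60.2 (0.58). Of 43 collagen genes, 1 was higher (2.33%), Col7a1 (1.02), and 7 lower (16.3%), among them the basement membrane chains Col4a5 (-0.70), Col4a6 (-1.08) and Col4a4 (-0.73). The other 4 were Col4a3 and the cartilage-type chains Col2a1, Col11a1 and Col11a2. Tgfb2 was lower (-0.69) and the protease inhibitor gene Timp1 higher, at 2.57 to 5.31 against 0.888 to 1.28 (1.81). Of the 8 endothelial markers 3 were lower, Cdh5 (-0.40), Pecam1 (-0.34) and Flt1 (-0.63), and all 3 remained called when any of the control mice was left out. Of the 8 smooth muscle and pericyte markers 3 were also lower (37.5%, median -0.32), Pdgfrb, Rgs5 and Myh11, of which 1 remained without S447 or without S448, and 1 marker was lower with the gene length trend removed. The part of fewer vessel cells in the lower vessel and basement membrane genes was not tested.

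Of 19 circadian clock genes, 1 was higher (5.26%, against 12.2% of all genes) and 2 lower, about the share of lower calls over all genes (4 without S460). Nfil3 (-1.09) lost its call without S447 (-0.71, adjusted p = 0.12), and Bhlhe41 (-0.98) without S449 (-0.82, adjusted p = 0.088).

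With all mice, the change of the genotype difference between treatments was called in 107 genes, and in 15 without control mouse S448. For the genes below, calls lost without single mice are given for the contrast after AICAR only. Mustn1, a gene of muscle regeneration (chromosome 14, positions 30879257 to 30881610), had 121, 99.9, 149, 86.3 and 107 normalized CPM in HSALR mice and 42.8, 47.4 and 55.3 in control mice after AICAR (1.21, adjusted p = 1.3e-04 by edgeR), and means of 337 and 49.4 after vehicle (2.77). The vehicle-treated HSALR mice, at 313 to 358, were all above the AICAR-treated ones, while the control mice of both treatments overlapped. The change of -1.56 was called (SE 0.22, adjusted p = 0.0075 by edgeR). Hspb1 (1.98 after vehicle and 0.75 after AICAR), Mybph (2.46 and 1.20), Ttc7 (2.47 and 1.07), Tceal7 (1.83 and 0.50) and Psmd5 (0.75 and 0.37) had the same order. Tceal7 lost its call after AICAR without S448 (0.41, adjusted p = 0.065) or S449 (0.46, adjusted p = 0.054). Ptx3, a soluble pattern recognition protein, was at 12.6 to 16.8 against 12.8 to 19.7 after AICAR (-0.18, adjusted p = 0.46) with 1.71 after vehicle, and its control mean was 16.6 after AICAR and 7.09 after vehicle. The channel gene Panx1 (1.41 after vehicle, 0.24 after AICAR) and the antioxidant gene Srxn1 (1.08 and -0.07) were not called after AICAR (adjusted p = 0.2 and 0.72 by edgeR).

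**Figure D5:**
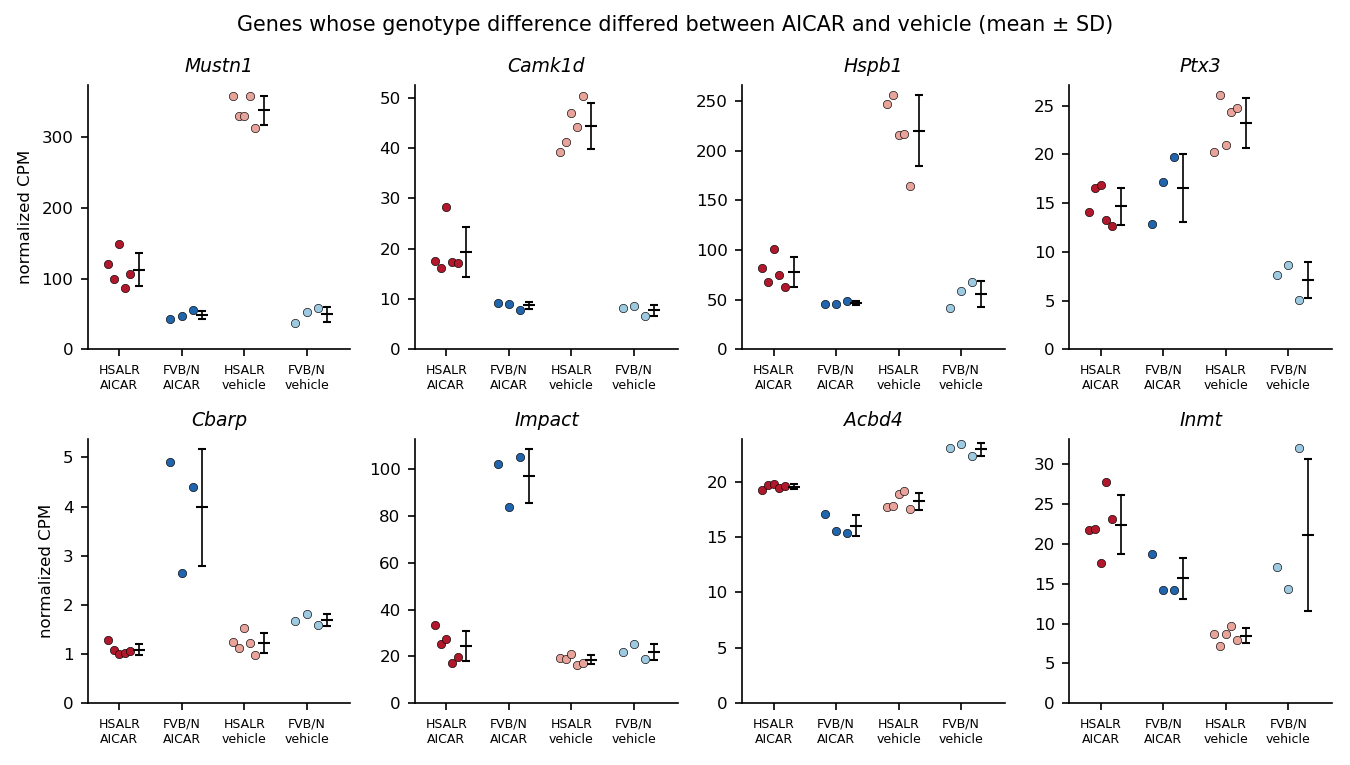
Level of 8 genes in normalized CPM (vertical axes, starting at 0) for each mouse of the 4 groups, HSALR and FVB/N after AICAR (dark red and dark blue) and after vehicle (light red and light blue), with mean and SD. In Mustn1, Camk1d and Hspb1 the HSALR mice differ between treatments and the control mice lie close together, while in Impact and Cbarp the AICAR-treated control mice stand above the other 3 groups.

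Other genes of this group had other patterns. Cbarp was at -1.86 after AICAR and -0.47 after vehicle (adjusted p of the change 0.029 by edgeR), and Hspa12b at -0.83 and 0.02. Cep19, a centrosomal gene, was at 24.3 to 30.4 against 10.7 to 11.7 normalized CPM after AICAR (1.24), with 0.63 after vehicle. Telo2 was at -0.60 and 0.48, Acbd4 at 0.29 and -0.33, and the long non-coding RNA Neat1 at 0.31 and -0.58. Neat1 lost its call after AICAR without S449 (0.22, adjusted p = 0.084). Vamp1, a vesicle fusion gene, was lower after both treatments, less so after AICAR (-0.75 and -1.46). The methyltransferase gene Inmt was at 17.6 to 27.8 against 14.2 to 18.7 after AICAR (0.51, adjusted p = 0.096) and at -1.32 after vehicle. Lyzl4 was at 0.47 to 1.15 against 0.0286 to 0.105 after AICAR (3.43) and at -2.55 after vehicle, and its control mice had 2 to 8 reads each after AICAR.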

How the data were processed

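mRNA of gastrocnemius muscle was sequenced from 16 mice, 8 of them treated with AICAR. The deposited values are raw read counts per gene, which the authors made by aligning single-end reads to mm10 with STAR 2.5.2a and counting reads that start in a RefSeq exon with QuasR. Whether the counting used strand is not given in the sources used here, and 75 of the 166 genes compared overlap another annotated gene. Of 24454 genes, 8967 were not tested after edgeR's filter on low counts. Counts were scaled by TMM and tested with edgeR 4.0.16 (R 4.3.3) by the quasi-likelihood test in a fit of all 4 groups, with Benjamini-Hochberg adjustment and a threshold of 0.05; the genotype contrast after AICAR minus that after vehicle was tested in the same fit. The code was checked on simulated data. Alternatives used DESeq2 1.42.0, limma 3.58.1, other scalings and filters, a fit of only the 8 AICAR libraries, a gene length correction and an epidermal covariate, and each mouse was left out in turn. Libraries held 64890014 to 81987726 counts, and replicate pairs among the AICAR mice differed beyond counting noise (chi-square per degree of freedom 24 to 114). The rule for named genes took the 15 largest differences in each direction with non-overlapping groups and a mean count of at least 50, up to 6 members of each list by adjusted p, a fixed set of muscle genes, and 10 genes in each direction of the contrast between treatments. Members and lists were chosen with earlier results of these data known. Promoter windows are from RefSeq, GRCm38.p6. Some genes that met the rule are not reported here.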

Additional observations from a re-analysis of the deposited data

Results flagged for a closer look

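HSALR mouse S460 stood apart from the other 4 AICAR-treated HSALR mice in 11 of the 14 values set apart from their group by Dixon's test. In normalized CPM it had 39 for Krt8, 31.7 for Krt18, 29.2 for Kcnn3, 28.2 for Camk1d, 2.06 for Celf4, 5.14 for Clca4a and 150 for Bhlhe41, all the highest of the group, and 286 for Mbnl2, the lowest. Its Myh1 share was 36.7%, its Myh4 share 55.2% and its Camk2d share 12.6%. The other values set apart were Musk at 85.3 in S454, Camk2n2 at 1.57 and Rpl21 at 109 in S455. In all 176 groups of 5 were tested, of which chance alone sets apart about 5%.

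The genotype difference differed between AICAR and vehicle for 22 of the genes named, by edgeR's quasi-likelihood test of that change with all mice. Without control mouse S448 the change was called for 15 of all genes tested, so not all of these 22 kept it. The change in log2 fold change, AICAR minus vehicle, was -1.74 for Impact, -1.40 for Cbarp, -1.37 for Camk1d, -1.26 for Mybph, -1.56 for Mustn1, -1.23 for Hspb1, -0.85 for Hspa12b and -0.38 for Psmd5. It was -1.89 for Ptx3, -1.33 for Tceal7, -1.40 for Ttc7, -1.17 for Panx1, -1.07 for Crem, -1.15 for Srxn1, -1.07 for Telo2 and -4.81 for Clca4a. It was positive for Acbd4 (0.62), Neat1 (0.89), Lyzl4 (5.98), Vamp1 (0.71), Cep19 (0.61) and Inmt (1.84).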

How the results depend on the processing

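Over 12 alternatives other than leaving out single mice, 3012 (no filter on low counts) to 3986 genes (DESeq2) differed after AICAR. The count of at least 2-fold differences was 353 with a minimum of 10 counts in every library. The count for the change between treatments was 538 with DESeq2 (197 higher, 341 lower), 322 with edgeR's likelihood ratio test (118 and 204) and 59 with the epidermal covariate (20 and 39). The Camk2a share difference was -3.8 points with counts divided by gene length. Leaving out each mouse gave 2214 to 3790 genes (1283 to 2042 higher, 931 to 1748 lower, 466 to 606 at least 2-fold), and 15 to 371 for the change between treatments (3 to 140 higher, 12 to 231 lower). The share differences then ranged from 17.6 to 20.7 points for Myh1, -0.166 to 1.38 for Myh2, -21.6 to -17.3 for Myh4, -1.42 to -0.275 for Myh7, 0.00227 to 0.00524 for Myh3, -0.0472 to -0.0125 for Myh8, -5.5 to -3.95 for Camk2a, 7.84 to 8.63 for Camk2b, 1.12 to 2.13 for Camk2d and -6.17 to -4.75 for Camk2g; with a mouse left out so few splits of the mice remain that the exact tests after adjustment say little about stability. Krt14 had log2 fold changes of -10.39 (without S462) to 0.51 (without S448). Chrnb1, Dach2, Camk2g and Musk, not called with all mice, passed with DESeq2 (0.43, -0.91, -0.18 and 0.63, adjusted p = 0.033, 0.034, 0.042 and 0.041). With only the 8 AICAR libraries fitted, Camk2d (0.40, adjusted p = 0.053) and Slc27a1 (-0.54, adjusted p = 0.051) lost their calls, and Dach2 (-0.90, adjusted p = 0.03) and Inmt (0.51, adjusted p = 0.038) gained them. Of 147 called genes among the 166 compared, 122 kept their call in every alternative, 23 lost it without some mouse and 9 under another setting. The cause was not tested. The genes compared were chosen by rule, many for a large or clear difference, and do not stand for all calls. Of all 3379 calls, 62.6% remained in the same direction without S447 and 67.9% without S449. No paired analysis was possible because each mouse number belongs to a single group.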
